A study of Mus musculus with 7 samples.

Results

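The circadian clock genes described here are 10 genes of the molecular clock and its output: Arntl, Clock and Npas2 (the positive limb), Per1, Per2 and Per3 (the PER limb), Nr1d1 and Nr1d2 (the REV-ERB limb), Dbp and Ciart. They were chosen by name and matched by Ensembl gene ID among the 55487 genes of the deposited tables. All 10 were among the 15688 genes with enough counts to be tested. The libraries came from the thoracic aorta of 3 Col3a1+/G182R and 4 Col3a1+/+ male C57BL/6 mice aged 7 weeks. Col3a1+/G182R mice are heterozygous for a knock-in glycine substitution in type III collagen and serve as a model of vascular Ehlers-Danlos syndrome, a disorder of arterial rupture. Col3a1+/+ mice are the wild-type controls. The knock-in is constitutive, and no treatment is named for these mice. The hour of the day at which the aortas were taken is not given in the sources used here, and its part in the values below was not tested.

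The molecular clock is a transcription loop that runs in nearly every cell and turns about once a day. The proteins BMAL1 (from Arntl) and CLOCK or NPAS2 bind E-box sequences and switch on the genes for PER, cryptochrome and REV-ERB proteins, which then act back on the loop: PER with cryptochrome represses BMAL1-CLOCK, and REV-ERB represses Arntl itself. In the vessel wall the same loop runs in smooth muscle, endothelium and adventitia, with Arntl transcripts known to peak at a time of day far from that of Per2, Nr1d1 or Dbp.

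Short stretches of promoter are shown for the 4 genes in which a motif of the loop was found close to an annotated start. Clock proteins are known to act on clock genes through motifs of these kinds. RefSeq promoter windows (build GRCm38.p6, 250 bases before to 50 after each start) matched 9 of the 10 genes by symbol, in 13 windows. Per2 had no window and was not searched. The motifs searched, on both strands, were the 3 named here, and capitals mark the matches. The E-box CACGTG, the site of BMAL1-CLOCK, occurred in Ciart, at 116, 58 and 44 bases before the start. It also occurred in Per1, at 166 bases before a start that lies inside the gene, downstream of its first base. The D-box TTATGTAA or TTACGTAA, the site of DBP and its relatives, occurred in Per3 at 205 and 158 bases before the start. The core of the site shared by the ROR and REV-ERB receptors, TAGGTCA or TGGGTCA, occurred in Arntl at 30 bases after a start.
Ciart, chr3:95882264-95882363, minus strand: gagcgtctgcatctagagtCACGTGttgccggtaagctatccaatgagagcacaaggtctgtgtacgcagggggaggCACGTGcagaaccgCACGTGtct
Per1, chr11:69098754-69098813, plus strand: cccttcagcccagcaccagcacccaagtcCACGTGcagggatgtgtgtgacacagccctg
Per3, chr4:151044801-151044890, minus strand: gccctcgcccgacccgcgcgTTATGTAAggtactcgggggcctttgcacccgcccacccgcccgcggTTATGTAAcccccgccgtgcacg
Arntl, chr7:113207529-113207558, plus strand: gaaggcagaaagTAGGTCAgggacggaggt
Among all 32851 windows, 7.15% held the E-box, 1.06% a D-box and 6.45% the ROR and REV-ERB core. Counted by gene, these shares were 8.09%, 1.23% and 7.35% of 27025 genes, beside 2, 1 and 1 of the 9 clock genes searched. A match is a description of the letters in the window, not a bound site.

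Each library was sequenced to between 18820015 and 23953746 counts in Col3a1+/G182R mice and between 13693861 and 21634680 in Col3a1+/+ mice. The first principal component held 43.3% of the variance, with scores of -25.11, -33.04 and -35.2 in Col3a1+/G182R libraries and of -11.23, 7.72, 31.23 and 65.63 in Col3a1+/+ libraries. Col3a1+/+ replicate 4, which also had the fewest counts, thus stood farthest out on this component. On the second component Col3a1+/+ replicate 2 had the highest score, 41.53, and Col3a1+/G182R replicate 3 the lowest, -32.97. The median gap between a gene's length and its effective length, which grows with the length of the sequenced fragments, was 120.98 to 130.62 bases in Col3a1+/G182R libraries and 113.66 to 120.02 bases in Col3a1+/+ libraries, and a fit with effective length as an offset called none of the 10 clock genes. Smooth muscle markers summed to 23600 to 25270 TPM (transcript abundance scaled for length) in Col3a1+/G182R libraries and 17270 to 28200 TPM in Col3a1+/+ libraries, so the defining transcripts of the aortic media were present in every library. Of the markers of other cells, all 6 macrophage genes measured higher (summed level 143.4 to 410.5 TPM in Col3a1+/G182R and 104.8 to 169 TPM in Col3a1+/+ libraries), as did all 5 adipocyte genes (1875 to 4221 TPM in Col3a1+/G182R and 1754 to 3570 TPM in Col3a1+/+ libraries). All 5 red blood cell genes and all 4 lymphatic endothelial genes also measured higher. Over all genes tested 50.6% measured higher. Other lists were mixed, with 2 of 4 brown adipocyte, 3 of 4 endothelial, 4 of 5 adventitial fibroblast and 2 of 3 Schwann cell genes higher. Of the 5 smooth muscle genes 1 measured higher. The 2 skeletal muscle genes tested measured lower. The 3 cardiac muscle genes tested measured lower, with a summed level of the list of 10.02 to 12.45 TPM in Col3a1+/G182R libraries and of 93.33, 45.78, 14.4 and 10.86 TPM in Col3a1+/+ libraries. None of these lists held a gene past the threshold, and their part in the clock gene values was not tested. In these bulk samples fewer cells of a type and less RNA per cell cannot be told apart. Col3a1 itself, read from both alleles, was at 4102, 4211 and 5202 CPM (counts scaled to library size) in Col3a1+/G182R libraries and at 5477, 3960, 3574 and 2828 CPM in Col3a1+/+ libraries, which overlapped.

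None of the 10 clock genes differed between genotypes at an adjusted p under 0.05 in edgeR's quasi-likelihood test over all genes, which called 6 genes, or 0.0382% of those tested. At an unadjusted p under 0.05, 1 clock gene measured higher in Col3a1+/G182R mice (Clock) and 1 lower (Nr1d1), against 9.57% of all genes higher and 10.8% lower. The same genes were those whose CPM did not overlap between the genotypes, against 10.1% of all genes higher and 10.8% lower. These shares are near the background. DESeq2, which called 4.61% of all genes on the same counts, also called none of the 10. It gave Ciart no adjusted p, so that gene could not be called. DESeq2 placed 4 of the 10 at an unadjusted p under 0.05, where it placed 22.1% of all genes. The fitted log2 fold changes (Col3a1+/G182R over Col3a1+/+) were above 0 in 5 genes and below 0 in 5, with a median of -0.22 (-0.08 without Col3a1+/+ replicate 2), beside a median of 0.01 over all genes tested.

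**Figure D1:**
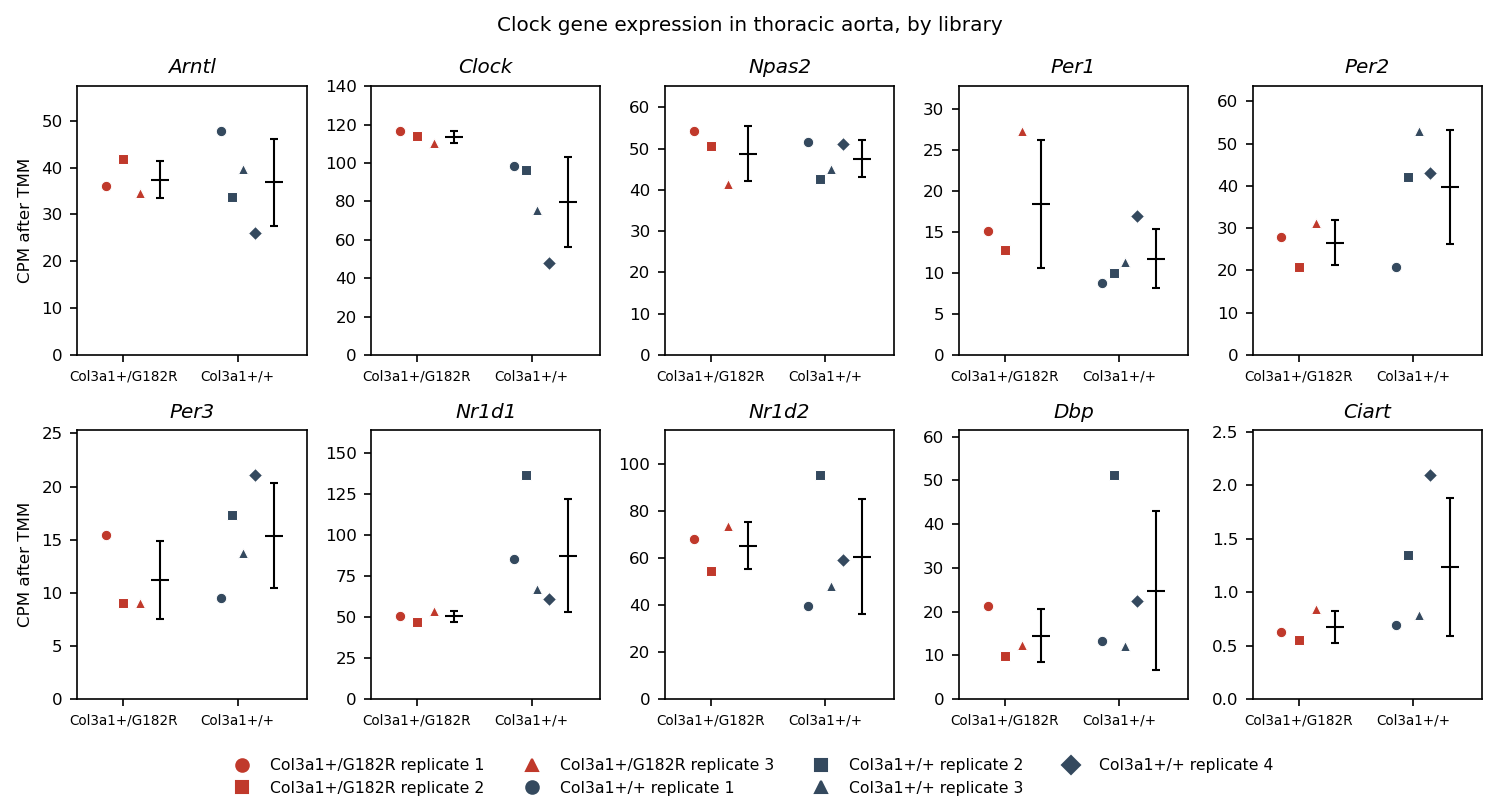
Expression of the 10 clock genes in every library, in CPM on a linear axis from 0, with Col3a1+/G182R libraries in red on the left of each panel and Col3a1+/+ libraries in dark blue on the right. Bars show the mean ± SD (n = 3 and n = 4), and only for Clock and Nr1d1 do the points of the genotypes not overlap.

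Clock, the partner of BMAL1 in the positive limb (chromosome 5, 76209868-76304792, minus strand), was the gene of this limb with the widest genotype difference. It was at 116.8, 114.0 and 110.5 CPM in Col3a1+/G182R libraries, against 98.23, 96.51, 75.53 and 48.19 CPM in Col3a1+/+ libraries. All Col3a1+/G182R libraries lay close together and above every Col3a1+/+ library, among which replicate 4 was far the lowest. The log2 fold change was 0.51 ± 0.218 (SE), with an edgeR adjusted p of 0.226, and lay between 0.33 and 0.63 when each library was left out in turn, the lowest without Col3a1+/+ replicate 4. Among the Col3a1+/+ libraries Clock decreased in the same order as the total counts (21634680, 17639094, 17004032 and 13693861) and as the scores on the first principal component increased, and the part of depth or of that component in the difference was not tested.

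Arntl, which encodes BMAL1 (chromosome 7, 113207465-113314126, plus strand), was at 36.06, 41.81 and 34.47 CPM in Col3a1+/G182R libraries and at 47.84, 33.79, 39.73 and 25.95 CPM in Col3a1+/+ libraries. The Col3a1+/G182R values lay inside the range of the Col3a1+/+ values. Its log2 fold change was 0.02 ± 0.193 (edgeR adjusted p = 0.953), and its sign turned with the library left out. Npas2, the paralog that can take the place of Clock (chromosome 1, 39193731-39363236, plus strand), was at 54.31, 50.55 and 41.45 CPM in Col3a1+/G182R libraries and at 51.64, 42.69, 44.98 and 51.10 CPM in Col3a1+/+ libraries. These groups also overlapped. Its log2 fold change was 0.04 ± 0.134 (edgeR adjusted p = 0.896).

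The 3 Period genes, whose proteins join cryptochromes to repress BMAL1-CLOCK, did not share a direction. Per1 (chromosome 11, 69095217-69109960, plus strand), whose transcription is also known to be induced by glucocorticoids and by cAMP, was at 15.11, 12.87 and 27.39 CPM in Col3a1+/G182R libraries, against 8.745, 10.01, 11.41 and 16.97 CPM in Col3a1+/+ libraries. The groups overlapped through Col3a1+/+ replicate 4, and Col3a1+/G182R replicate 3 stood above all others. Per1 had a log2 fold change of 0.65 ± 0.297 (edgeR adjusted p = 0.252), and of 0.24 without Col3a1+/G182R replicate 3. Per2 (chromosome 1, 91415982-91459324, minus strand) was at 27.81, 20.71 and 31.17 CPM in Col3a1+/G182R libraries, against 20.91, 41.99, 53.01 and 43.12 CPM in Col3a1+/+ libraries. Apart from Col3a1+/+ replicate 1, every Col3a1+/+ library was above every Col3a1+/G182R library. Per2 had a log2 fold change of -0.58 ± 0.279 (edgeR adjusted p = 0.268), and of -0.79 without Col3a1+/+ replicate 1. Per3 (chromosome 4, 151003652-151044665, minus strand) was at 15.47, 9.036 and 9.077 CPM in Col3a1+/G182R libraries and at 9.486, 17.28, 13.71 and 21.09 CPM in Col3a1+/+ libraries. The groups overlapped, with Col3a1+/G182R replicate 1 on the side of the Col3a1+/+ libraries and Col3a1+/+ replicate 1 on the other. For Per3 the log2 fold change was -0.45 ± 0.292 (edgeR adjusted p = 0.385), and lay between -0.77 without Col3a1+/G182R replicate 1 and -0.27 without Col3a1+/+ replicate 4.

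Nr1d1, which encodes the haem-binding repressor REV-ERB alpha (chromosome 11, 98767932-98775333, minus strand), had the lowest adjusted p of the 10 genes. It was at 50.73, 46.71 and 53.57 CPM in Col3a1+/G182R libraries, against 85.05, 136.4, 66.84 and 60.76 CPM in Col3a1+/+ libraries. In CPM the Col3a1+/G182R libraries were tight and below every Col3a1+/+ library, and Col3a1+/+ replicate 2 was the highest. In TPM the genotypes all but met, at 35.46 in Col3a1+/G182R replicate 3 and 35.47 in Col3a1+/+ replicate 3. The log2 fold change was -0.79 ± 0.256, with an edgeR adjusted p of 0.17, and was -0.495 without Col3a1+/+ replicate 2. DESeq2 gave an adjusted p of 0.0525 over all libraries, the lowest in a range that reached 0.433 over the settings planned. With single libraries left out of the DESeq2 fit, an alternative added after the data were seen, Nr1d1 passed the threshold without Col3a1+/+ replicate 1 (log2 fold change -0.81, adjusted p = 0.0407) and without Col3a1+/+ replicate 4 (-0.93, adjusted p = 0.00363). In those fits Per2 was called without replicate 1 (-0.80, DESeq2 adjusted p = 0.004) and Per1 without replicate 4 (0.87, DESeq2 adjusted p = 0.0419), and no clock gene was called in the other 5. The fit without replicate 1 called 12.0% of all genes and the fit without replicate 4 called 4.43%.

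Nr1d2, its paralog encoding REV-ERB beta (chromosome 14, 18204054-18239127, minus strand), was at 67.95, 54.34 and 73.61 CPM in Col3a1+/G182R libraries and at 39.56, 95.40, 48.06 and 59.34 CPM in Col3a1+/+ libraries. Here the Col3a1+/+ values lay on both sides of the Col3a1+/G182R values, with replicate 1 lowest and replicate 2 highest. The log2 fold change was 0.11 ± 0.268 (edgeR adjusted p = 0.836), and ran between -0.05 without Col3a1+/+ replicate 1 and 0.415 without Col3a1+/+ replicate 2.

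Dbp, an output gene whose protein activates D-box genes (chromosome 7, 45705088-45710203, plus strand), was at 21.39, 9.761 and 12.33 CPM in Col3a1+/G182R libraries and at 13.33, 51.24, 12.07 and 22.51 CPM in Col3a1+/+ libraries. A single library, Col3a1+/+ replicate 2, stood above all others, and the rest overlapped. For Dbp the log2 fold change was -0.77 ± 0.491 (edgeR adjusted p = 0.381), and -0.14 without that library and -1.18 without Col3a1+/G182R replicate 1. Ciart, which encodes CHRONO, a repressor of BMAL1-CLOCK (chromosome 3, 95878503-95882251, minus strand), rested on 13 to 16 counts in each Col3a1+/G182R library and 13 to 31 in each Col3a1+/+ library. Its level was 0.6279, 0.5541 and 0.8395 CPM in Col3a1+/G182R libraries and 0.6941, 1.347, 0.7849 and 2.095 CPM in Col3a1+/+ libraries, again overlapping. Ciart had a log2 fold change of -0.85 ± 0.463 (edgeR adjusted p = 0.316), and of -0.489 without Col3a1+/+ replicate 4. Of the 10 genes it had the fewest counts behind it.

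Reads of Nr1d1 and Dbp can be shared with a neighbour on the opposite strand. In the GENCODE M21 annotation 263 exon bases of Nr1d1 overlap Thra, a thyroid hormone receptor gene, and 539 exon bases of Dbp overlap Sphk2, a sphingosine kinase gene. The expected counts of Nr1d1 and Dbp were not whole numbers in any of the 7 libraries, as happens where reads are divided between genes, and those of the other 8 clock genes were whole in all of them. Thra was at 314.6, 256.5 and 231.6 CPM in Col3a1+/G182R libraries and at 285.1, 255.0, 214.6 and 210.3 CPM in Col3a1+/+ libraries, with a log2 fold change of 0.15 (edgeR adjusted p = 0.597). Sphk2 was at 32.47, 26.13 and 24.03 CPM in Col3a1+/G182R libraries and at 32.16, 29.63, 27.71 and 33.19 CPM in Col3a1+/+ libraries. Thra was highest in Col3a1+/G182R replicate 1 and Sphk2 in Col3a1+/+ replicate 4. The part of shared reads in the values of Nr1d1 and Dbp was not tested.

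**Figure D2:**
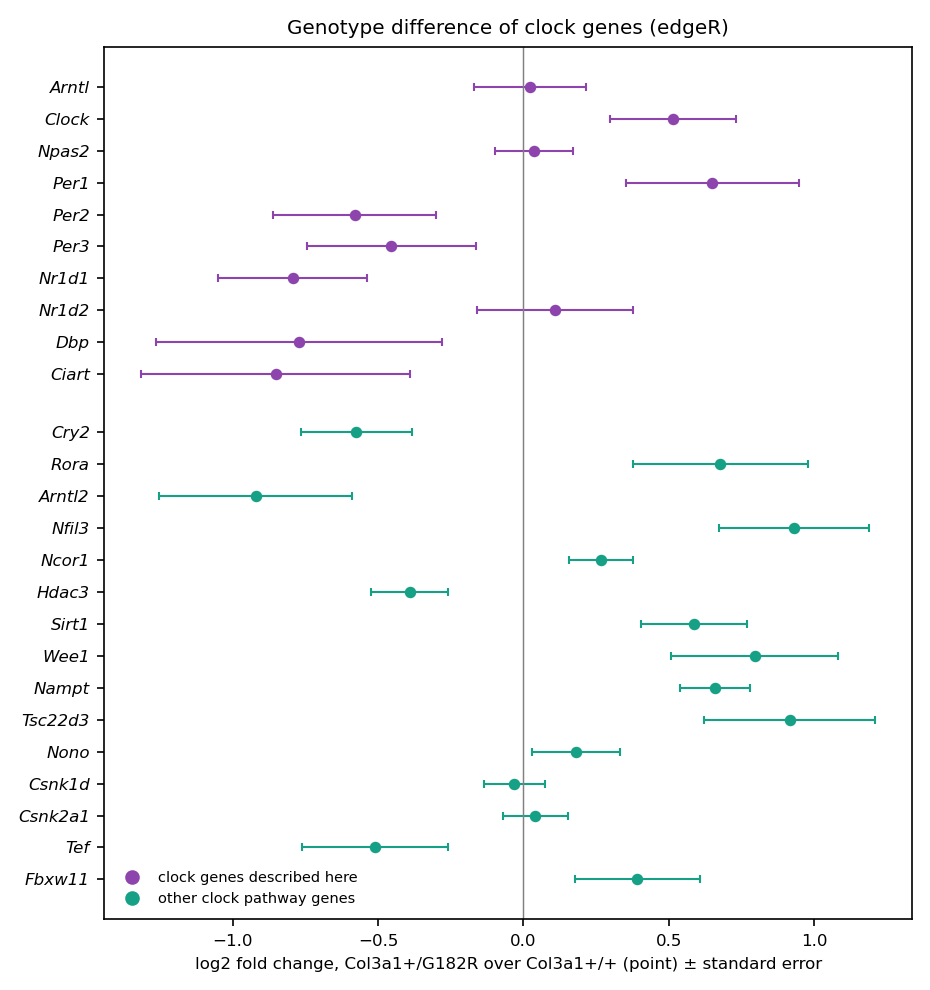
Genotype difference from edgeR as a log2 fold change (points, above 0 where the Col3a1+/G182R mice were higher) with its standard error (bars), for the 10 clock genes above and for 15 other clock pathway genes below. None passed an adjusted p of 0.05, and the clock genes run between -0.85 for Ciart and 0.65 for Per1.

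Per length of transcript, Nr1d1 had the highest level of the 10 clock genes (41.8 ± 18.1 TPM, SD over the 7 libraries), followed by Dbp (30.2 ± 18.2 TPM), Nr1d2 (22.4 ± 6.96 TPM), Arntl (20.7 ± 4.01 TPM), Npas2 (17.4 ± 2.57 TPM) and Clock (14.7 ± 4.61 TPM). Per2 (8.30 ± 2.73 TPM), Per3 (4.85 ± 1.80 TPM), Per1 (4.73 ± 2.34 TPM) and Ciart (1.19 ± 0.763 TPM) were lower. Only Per2 over Per3 and Per1 over Ciart held in all 7 libraries, and Nr1d2 was above Arntl in 4 of 7. The other neighbours in this order kept it in 5 or 6 of 7 libraries. The order differed by genotype in places. In Col3a1+/G182R libraries Dbp averaged 22.3 ± 8.52 TPM and Nr1d2 24.2 ± 6.00 TPM, and in Col3a1+/+ libraries Dbp averaged 36.1 ± 22.4 TPM and Nr1d2 21.0 ± 8.19 TPM. In Col3a1+/G182R libraries Per1 averaged 6.14 ± 3.03 TPM and Per3 3.87 ± 0.996 TPM, and in Col3a1+/+ libraries Per1 averaged 3.68 ± 1.17 TPM and Per3 5.60 ± 2.02 TPM.

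The clock genes varied among mice of the same genotype, and 9 of the 10 had a within-genotype SD of log2 CPM above the median over all genes tested, 0.266. Dbp had the largest (0.822, at the 96.1 percentile of all genes), followed by Ciart (0.55), Per2 (0.49), Per1 (0.48), Per3 (0.472), Nr1d2 (0.446), Nr1d1 (0.408) and Clock (0.371). Arntl (0.303) and Npas2 (0.165, at the 22.9 percentile) had the smallest when both genotypes were pooled. Among Col3a1+/G182R libraries alone, Clock (0.04), Nr1d1 (0.099) and Arntl (0.145) were less spread than Npas2 (0.202). Between the lowest and the highest mouse, Dbp spanned 2.19-fold among Col3a1+/G182R libraries and 4.24-fold among Col3a1+/+ libraries. Clock spanned 1.06-fold in Col3a1+/G182R and 2.04-fold in Col3a1+/+ libraries. The range of Nr1d1 was 1.15-fold in Col3a1+/G182R and 2.25-fold in Col3a1+/+ libraries.

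The highest Col3a1+/+ library differed by limb. Replicate 2 was the highest of all 7 libraries for Nr1d1, Nr1d2 and Dbp, and also for Tef, a relative of Dbp, and was the lowest for Cry1 and for Nfil3, which encodes a repressor of D-box genes. Replicate 1 was the lowest of the Col3a1+/+ libraries for Per1, Per2, Per3, Nr1d2 and Ciart and the highest for the 3 positive limb genes. Replicate 4 was the lowest of all for Arntl and Clock and the highest for Per3 and Ciart. Among Col3a1+/G182R libraries, replicate 2 was the lowest of all 7 for Per2, Per3, Nr1d1, Dbp and Ciart.

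**Figure D3:**
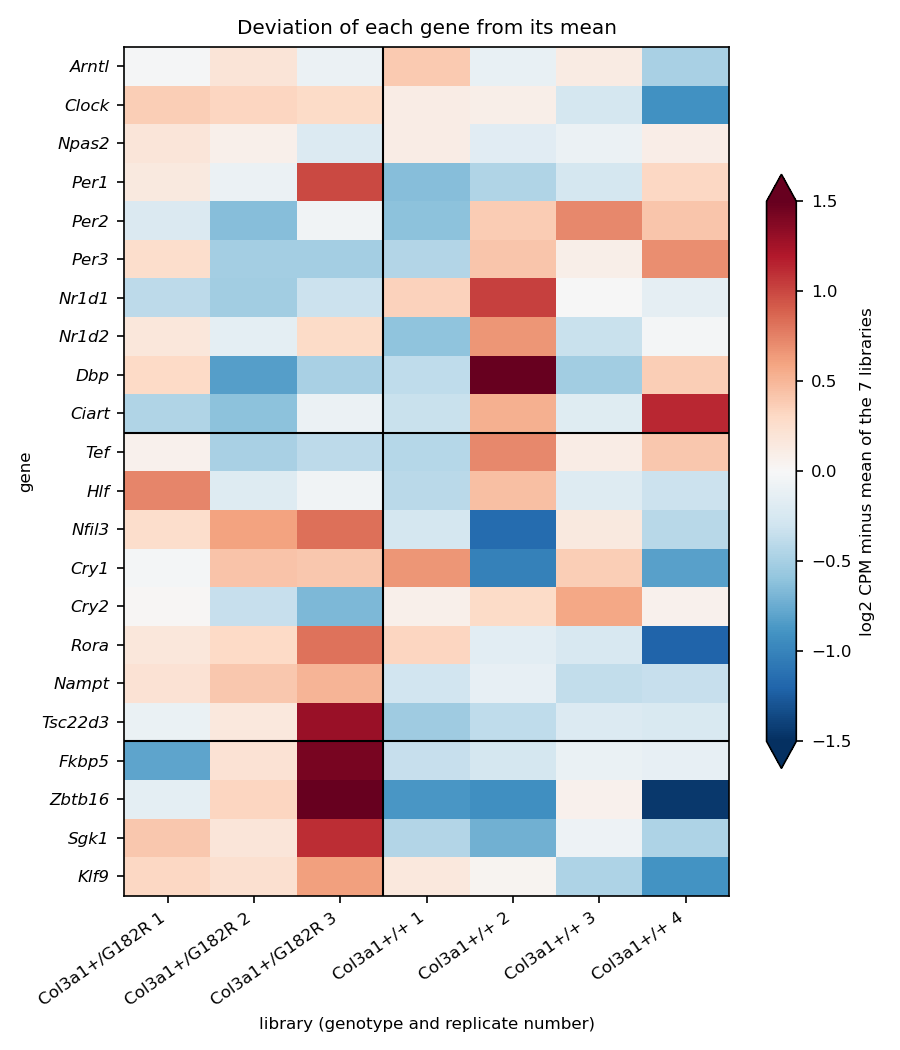
Deviation of each gene (rows) in each library (columns) from its mean over the 7 libraries, in log2 CPM, with the clock genes at the top, other pathway genes in the middle and glucocorticoid-induced genes at the bottom. Col3a1+/+ replicate 2 is high for Nr1d1, Nr1d2, Dbp and Tef and low for Nfil3 and Cry1, and Col3a1+/G182R replicate 3 is high for Per1 and for the glucocorticoid-induced genes.

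To compare the limbs, the log2 CPM of their genes was averaged in each library. The positive limb stood at 5.94, 5.96 and 5.76 in Col3a1+/G182R libraries and at 5.97, 5.70, 5.68 and 5.33 in Col3a1+/+ libraries. The PER limb stood at 4.23, 3.76 and 4.32 in Col3a1+/G182R libraries and at 3.60, 4.29, 4.35 and 4.64 in Col3a1+/+ libraries. The REV-ERB limb stood at 5.88, 5.66 and 5.98 in Col3a1+/G182R libraries and at 5.86, 6.84, 5.83 and 5.91 in Col3a1+/+ libraries. The genotypes overlapped in each limb. In Col3a1+/+ libraries the positive and PER limbs ran in opposite order, the positive limb being highest in replicate 1 and lowest in replicate 4 and the PER limb lowest in replicate 1 and highest in replicate 4.

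The positive limb minus the PER limb was 1.71, 2.21 and 1.44 in Col3a1+/G182R libraries (mean 1.79 ± 0.387 SD), against 2.37, 1.41, 1.34 and 0.68 in Col3a1+/+ libraries (mean 1.45 ± 0.694 SD). The positive limb minus the REV-ERB limb was 0.06, 0.30 and -0.22 in Col3a1+/G182R libraries (mean 0.05 ± 0.26 SD), against 0.11, -1.14, -0.14 and -0.59 in Col3a1+/+ libraries (mean -0.44 ± 0.545 SD). Both quantities overlapped between genotypes. The genotype means differed by 0.34 and 0.49 on the log2 scale, each less than the SD among Col3a1+/+ mice. With both genotypes pooled, the SD within genotypes was 0.59 for positive minus PER and 0.453 for positive minus REV-ERB. By that measure the difference was smaller than the SD for positive minus PER and slightly larger for positive minus REV-ERB. The PER limb minus the REV-ERB limb averaged -1.74 ± 0.143 in Col3a1+/G182R and -1.89 ± 0.614 in Col3a1+/+ libraries. No p was computed for a mean over chosen genes.

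**Figure D4:**
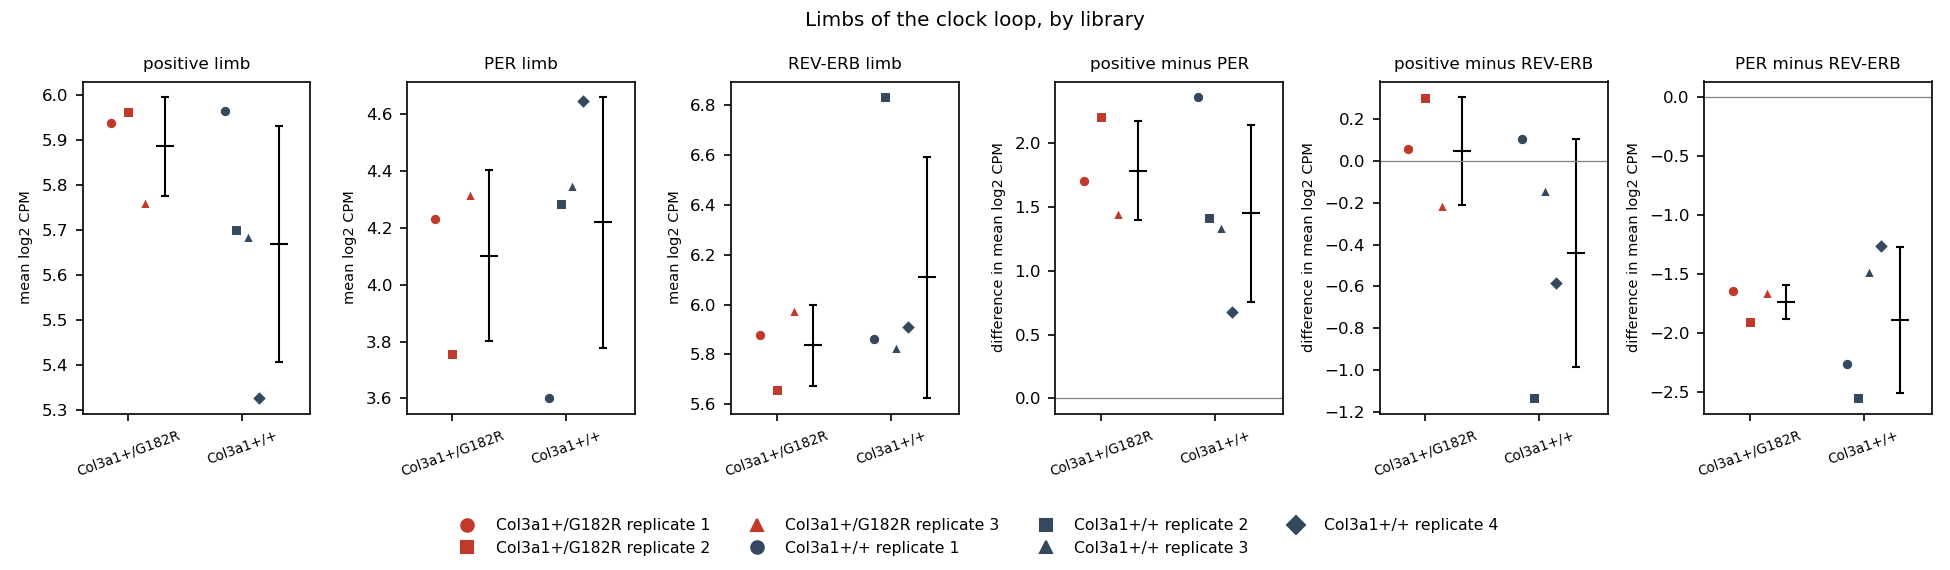
Mean log2 CPM of the 3 limbs and the differences between them in each library, with the mean ± SD of each genotype (n = 3 Col3a1+/G182R on the left and n = 4 Col3a1+/+ on the right of each panel), on axes that do not start at 0. The genotypes overlap in every panel, and Col3a1+/+ libraries are spread wider than Col3a1+/G182R libraries, as in the median over all genes tested.

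Ratios between clock genes within a library do not depend on its scaling. Of the 45 pairs, 10 had TPM ratios that did not overlap between genotypes, a share of 22.2%, against 19.1% of all pairs of the 15552 tested genes with TPM above 0 in every library. The share among clock genes was near that background. Of these, 4 held Per1, 4 held Nr1d1 and 3 held Clock, and of the 21 pairs without these genes only Per2 over Nr1d2 was among them. The pairs share genes and are not independent, and the ratios described next were chosen after their values were seen and were not tested. Nr1d1 over Nr1d2 was 1.18, 1.45 and 1.19 in Col3a1+/G182R libraries, against 3.28, 2.38, 2.23 and 1.85 in Col3a1+/+ libraries, so that the REV-ERB genes were closer to each other in every Col3a1+/G182R mouse. Clock over Nr1d1 was 0.629, 0.688 and 0.549 in Col3a1+/G182R libraries, against 0.311, 0.173, 0.292 and 0.197 in Col3a1+/+ libraries. Per1 over Per2 was 0.719, 0.796 and 1.16 in Col3a1+/G182R libraries, against 0.538, 0.31, 0.276 and 0.507 in Col3a1+/+ libraries. Arntl over Clock was 1.05, 1.23 and 1.08 in Col3a1+/G182R libraries, against 1.75, 1.36, 2.01 and 2.07 in Col3a1+/+ libraries.

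**Figure D5:**
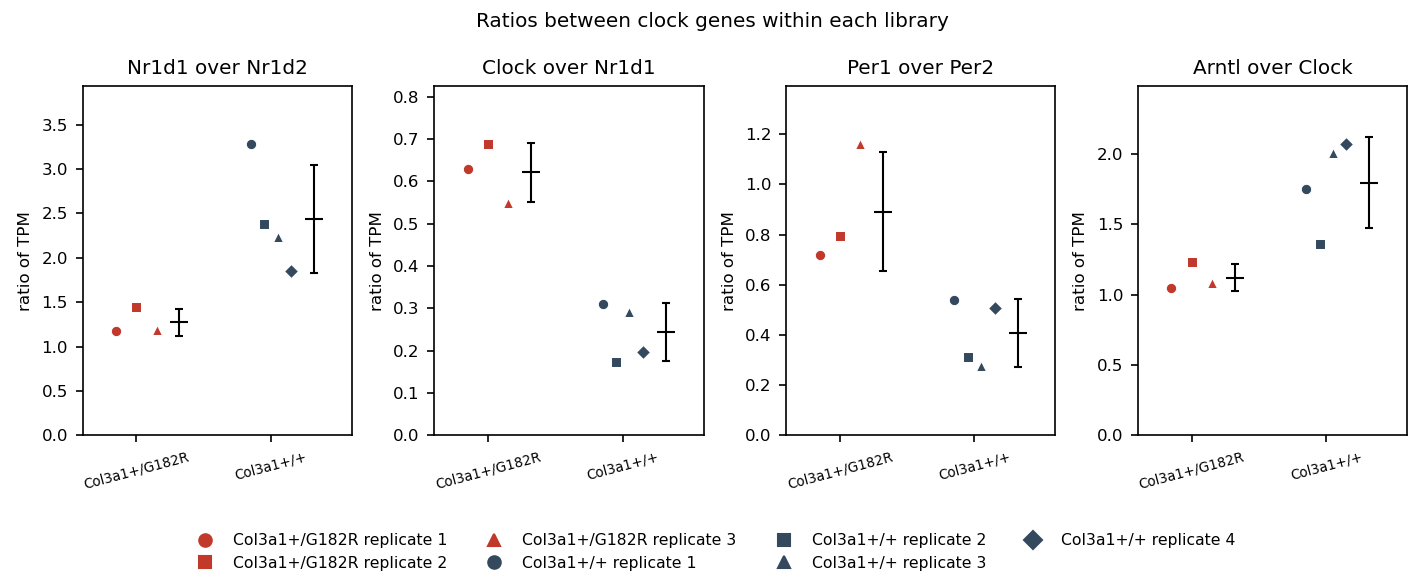
Ratio of the TPM of pairs of clock genes in each library, on linear axes from 0, with the mean ± SD of each genotype (n = 3 Col3a1+/G182R on the left and n = 4 Col3a1+/+ on the right). In all 4 pairs shown the genotypes do not overlap, Nr1d1 over Nr1d2 lying between 1.18 and 1.45 in Col3a1+/G182R libraries and between 1.85 and 3.28 in Col3a1+/+ libraries.

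Of 29 other genes of the clock pathway, 28 were tested and none passed the adjusted threshold in edgeR. Rorb had no counts in any library. At an unadjusted p under 0.05, 7 measured higher (25.0%, against 9.57% of all genes) and 3 lower (10.7%, against 10.8%), with a median log2 fold change of 0.18. Among the repressors, Cry2, a cryptochrome, was at 44.31, 34.31 and 27.49 CPM in Col3a1+/G182R libraries, against 46.13, 53.47, 65.63 and 45.62 CPM in Col3a1+/+ libraries, with no overlap (log2 fold change -0.57 ± 0.190, edgeR adjusted p = 0.175). Hdac3, the deacetylase through which REV-ERB acts, had a log2 fold change of -0.39 ± 0.133, and Ncor1, its corepressor, one of 0.27 ± 0.110. Nfil3 was at 46.29, 58.56 and 68.47 CPM in Col3a1+/G182R libraries, against 32.16, 17.33, 42.62 and 29.00 CPM in Col3a1+/+ libraries, with no overlap (0.93 ± 0.259, edgeR adjusted p = 0.158). Tef, which acts on the same D-box as Dbp and against Nfil3, was at 95.40, 64.96 and 69.26 CPM in Col3a1+/G182R libraries and at 67.56, 149.5, 98.53 and 121.0 CPM in Col3a1+/+ libraries, which overlapped (-0.51 ± 0.252).

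Among the activators, Rora, a receptor that switches on Arntl at the sites REV-ERB also binds, was at 62.52, 68.20 and 98.06 CPM in Col3a1+/G182R libraries, against 69.78, 49.66, 46.91 and 24.06 CPM in Col3a1+/+ libraries (log2 fold change 0.68 ± 0.300, edgeR adjusted p = 0.242). Arntl2, a paralog of Arntl, had a log2 fold change of -0.92 ± 0.332 (edgeR adjusted p = 0.187). Of the outputs, Nampt, the rate-limiting enzyme of NAD salvage, was at 74.45, 84.78 and 91.82 CPM in Col3a1+/G182R libraries, against 52.70, 59.03, 49.69 and 50.62 CPM in Col3a1+/+ libraries. The groups did not overlap, and the log2 fold change of Nampt was 0.66 ± 0.121 (edgeR adjusted p = 0.113). Sirt1, a deacetylase that uses NAD, had a log2 fold change of 0.59 ± 0.183 and Wee1, a kinase of the cell cycle, one of 0.80 ± 0.286. DESeq2 called Nampt (adjusted p = 2.56e-04) and Nfil3 (adjusted p = 0.0314) of this list, where it called 4.61% of all genes. Their adjusted p ranged up to 0.411 and 0.428 over the settings planned. The other abundant genes of the list had log2 fold changes of 0.18 for Nono, -0.03 for Csnk1d, 0.04 for Csnk2a1 and 0.39 for Fbxw11. Of these, only Fbxw11 did not overlap between genotypes.

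Beside Per1, genes that glucocorticoids are known to induce were read as a list of 5, which shares Tsc22d3 with the pathway list. None passed the adjusted threshold in edgeR, all 5 measured higher, against 50.6% of all genes, and 4 of them had an unadjusted p under 0.05, against 9.57% of all genes higher. Their median log2 fold change was 0.92, and 0.50 without Col3a1+/G182R replicate 3, where 4 of the 5 measured higher and Fkbp5 was at -0.002. Col3a1+/G182R replicate 3, the library with the highest Per1, was the highest of the 7 for all 5. Zbtb16 was at 12.33, 17.05 and 110.8 CPM in Col3a1+/G182R libraries, against 7.403, 7.144, 14.31 and 4.934 CPM in Col3a1+/+ libraries. Its log2 fold change was 2.46 ± 0.695 (edgeR adjusted p = 0.159), and 0.79 without replicate 3, and among the settings planned it passed the threshold only with no low-count filter (edgeR adjusted p = 0.00883, in a range up to 0.433). Fkbp5 was at 6.728, 13.64 and 31.64 CPM in Col3a1+/G182R libraries, against 9.208, 9.721, 10.93 and 10.75 CPM in Col3a1+/+ libraries. Col3a1+/G182R replicate 1 thus lay below every control and replicate 2 above every control. Tsc22d3 was at 19.33, 23.06 and 50.84 CPM in Col3a1+/G182R libraries, against 14.30, 15.87, 17.99 and 17.64 CPM in Col3a1+/+ libraries. Tsc22d3, Sgk1 and Klf9, 3 of the 5, were higher without overlap between genotypes in CPM, against 10.1% of all genes. Their log2 fold changes were 0.92 ± 0.294 (edgeR adjusted p = 0.17), 1.03 ± 0.230 (edgeR adjusted p = 0.144) and 0.63 ± 0.235 (edgeR adjusted p = 0.193). DESeq2 called Sgk1 of this list (adjusted p = 0.00596, in a range up to 0.411), where it called 4.61% of all genes. The same library also had the highest summed markers of macrophages (410.5 TPM), adipocytes (4221 TPM), endothelium (198.4 TPM) and lymphatic endothelium (23.26 TPM). The other marker lists were highest in other libraries. The part of the glucocorticoid-induced list or of any marker list in the Per1 value was not tested.

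Per1 and Per2 also belong to the genes that respond within minutes to signals at the cell surface, so 8 immediate early genes were read beside them. None passed the adjusted threshold in edgeR, all 8 measured higher in Col3a1+/G182R mice (50.6% of all genes did), 4 at an unadjusted p under 0.05 (9.57% of all genes), with a median log2 fold change of 0.58. Fos was at 41.89, 35.42 and 13.80 CPM in Col3a1+/G182R libraries, against 10.64, 1.933, 10.08 and 5.407 CPM in Col3a1+/+ libraries. Unlike Per1, Fos was lowest among Col3a1+/G182R mice in replicate 3. DESeq2 called Fos of this list (adjusted p = 0.0481, in a range between 0.00408 and 0.428), where it called 4.61% of all genes. Col3a1+/+ replicate 2, the library with the highest Nr1d1, Nr1d2 and Dbp, was the lowest of the 7 for 6 of the 8 genes.

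Among 10639 other protein-coding genes with a mean of at least 5 CPM, those whose log2 CPM followed Arntl most closely over the 7 libraries were Sorbs2 (Pearson's r = 0.975), Faim (0.97), Cap1 (0.965), Ercc3 (0.963) and Afap1 (0.96). Those that ran most against it were Sepsecs (-0.972), Dedd (-0.97), Terf1 (-0.948), Helq (-0.945) and Proser1 (-0.944). Sorbs2 was at 83.96, 89.0 and 77.91 CPM in Col3a1+/G182R libraries and at 116.0, 65.06, 87.79 and 46.3 CPM in Col3a1+/+ libraries, with Col3a1+/+ replicate 1 highest and replicate 4 lowest, as for Arntl. None of the other clock genes was among these 10, since the clock genes were left out of this comparison. The values are the closest of many over 7 libraries that share a scaling, and are given as a description.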

How the data were processed

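RNA from the thoracic aorta of each mouse was made into poly(A), strand-marking libraries and sequenced in paired ends, 1 library a mouse. Per the deposited tables, the authors gave for each gene and library an RSEM expected count, TPM and FPKM with the length and effective length used. The submitters' processing notes name STAR 2.7.6a, RSEM 1.3.1 and GRCm38, while the methods of the paper describe another pipeline. Whether the counting used strand is not given in the sources used here. TPM as deposited by the authors was used for levels between genes and ratios, and the FPKM values the authors deposited were not used. Of 55487 gene IDs, 55227 matched GENCODE M21, which gave symbols and places.

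Expected counts, of which 24.51% to 27.62% of those above 0 were not whole, were rounded, filtered with filterByExpr (minimum count 10), scaled by TMM and tested with edgeR 4.0.16 (quasi-likelihood, genotype only, two-sided, R 4.3.3) over all 15688 genes, with Benjamini-Hochberg adjustment and a threshold of 0.05. CPM uses the TMM-scaled library sizes, and log2 CPM a prior count of 2. The SE is the log2 fold change over the root of F. DESeq2 1.42.0, limma 3.58.1 (voom, with and without library quality weights), RLE factors, other count filters, an effective length offset, a replicate block and leaving out each library were alternatives. The fits were tested on simulated data. The deviations of same-numbered libraries correlated at -0.047 to 0.0777, inside the range of the other pairs (-0.178 to 0.177). So few libraries cannot show whether replicate numbers pair the mice, and the main fit held genotype only. Col3a1+/+ replicate 4 has no Col3a1+/G182R library of the same number. The labels do not say more of the replicates than that they are separate aorta samples, so p-values measure the spread between these samples.

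The clock genes, the pathway, glucocorticoid and immediate early lists and the markers were chosen with earlier results of these data known. All 10 clock genes are named, then the pathway genes at an unadjusted p under 0.05 and the 6 others of highest mean CPM, and the 5 genes most and least like Arntl. Tef is among those 6, of which 1 is not reported here. Cry1 in the report and the genes under the other observations were named after their values were seen.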

Additional observations from a re-analysis of the deposited data

How the results depend on the processing

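With edgeR, 6 of all genes passed the threshold, a count that moved to 723 with DESeq2, 11 with limma-voom, 546 with library quality weights, 353 with no low-count filter, 14 with an effective length offset and 46 with a replicate block, and stayed at 6 with RLE factors. It was 0 where at least 10 counts were asked of every library (3046 genes at an unadjusted p under 0.05, beside 3194 in the main fit), and ran from 0 to 183 with each library left out: leaving out Col3a1+/+ replicate 1 gave 183, leaving out Col3a1+/+ replicate 4 gave 32, and each of the other 5 gave 0 (1830 to 3315 at an unadjusted p under 0.05). The cause was not tested. None of the 10 clock genes passed under any planned setting, where 142 of 150 values kept their direction and 8 turned. For Ciart DESeq2 gave no adjusted p. In DESeq2 with a library left out, chosen after seeing the data, the count of clock genes ran from 0 to 2, with 2 without Col3a1+/+ replicate 1 (Per2 and Nr1d1), where 12.0% of all genes were called, and 2 without Col3a1+/+ replicate 4 (Per1 and Nr1d1), where 4.43% were. Of the other pathway genes, 2 passed with DESeq2 (Nampt and Nfil3), 1 with library quality weights (Nampt) and 3 with no low-count filter (Nfil3, Nampt and Tsc22d3). The DESeq2 fits with a library left out called 1 to 7 of them, the 7 without Col3a1+/+ replicate 1. Over all genes those fits called from 120 of 16056 (without Col3a1+/G182R replicate 2) to 1860 of 15471 (without Col3a1+/+ replicate 1). The fold changes that turned were near 0: Arntl at -0.01 with the effective length offset, at -0.103 with the replicate block and between -0.122 and 0.176 with a library left out, Npas2 between -0.06 and 0.131 and Nr1d2 between -0.05 and 0.415. The positive minus PER limb difference between genotypes, 0.34, ran between 0.08 (without Col3a1+/+ replicate 4) and 0.64 (without Col3a1+/+ replicate 1), and positive minus REV-ERB, 0.49, between 0.26 (without Col3a1+/+ replicate 2) and 0.67 (without Col3a1+/+ replicate 1). PER minus REV-ERB, 0.15, was -0.07 without Col3a1+/+ replicate 2 and 0.36 without Col3a1+/+ replicate 4. Depth limits Ciart most, at 13 to 31 counts a library.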

Other observations

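Other repressors and outputs of the clock, named after their values were seen, are given as values. Cry1, a cryptochrome that joins the PER proteins, was at 5.562, 7.672 and 7.555 CPM in Col3a1+/G182R libraries and at 9.069, 2.752, 7.366 and 3.177 CPM in Col3a1+/+ libraries. The Col3a1+/+ mice lay on both sides of the Col3a1+/G182R mice, with replicates 2 and 4 low, and the log2 fold change of Cry1 was 0.30 ± 0.397 (edgeR adjusted p = 0.679). Hlf, of the same family as Dbp and Tef, was at 15.43, 8.098 and 8.919 CPM in Col3a1+/G182R libraries and at 6.987, 12.71, 8.090 and 7.367 CPM in Col3a1+/+ libraries, with Col3a1+/+ replicate 2 again the highest of its genotype (log2 fold change 0.30 ± 0.287, edgeR adjusted p = 0.557). Usp2, a deubiquitinase with a daily rhythm in many tissues, was at 4.978, 5.413 and 6.086 CPM in Col3a1+/G182R libraries, against 6.478, 6.383, 7.547 and 8.111 CPM in Col3a1+/+ libraries. Its groups did not overlap, and its log2 fold change was -0.38 ± 0.190 (edgeR adjusted p = 0.287). Bhlhe40 and Bhlhe41, the DEC repressors that compete for the E-box, overlapped between genotypes, with log2 fold changes of -0.10 ± 0.239 and -0.08 ± 0.261.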
